A study of Homo sapiens with 6 samples.

Results

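The genes described here encode the proteins of the mitochondrial ribosome. They were chosen by name alone, as the rows of the expression table whose symbol is MRPL or MRPS followed by a number and at most 1 letter from A to C, and 78 of the 27216 rows met this rule. The table holds 6 samples of H1975, a human lung adenocarcinoma line that carries mutant EGFR and has wild-type genotype by its labels. The 3 parental samples are labelled as Osi (osimertinib, an EGFR tyrosine kinase inhibitor) for 0 h and their columns are named for DMSO, and the sources do not say whether those cells received DMSO or nothing. The 3 adapted samples are the cells still attached after 72 h of 1000 nM Osi, once apoptotic cells had been washed away. All samples come from 1 line, and nothing in the labels says whether replicates were separate cultures, so that p-values measure only the spread between these samples. The labels also describe RNase R, an enzyme that digests linear RNA, before library construction in both groups.

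Mitochondria keep their own ribosome, which makes only the few proteins encoded in mitochondrial DNA, all of them core subunits of oxidative phosphorylation (OXPHOS). Its RNAs come from the mitochondrial genome, but every protein is encoded in the nucleus, made in the cytosol and imported. Many of these proteins have a counterpart in the bacterial ribosome, and others are found only in mitochondria. The large subunit joins amino acids and passes the new chain through an exit tunnel at the inner membrane, and the small subunit binds and decodes the mRNA. By their known places in the ribosome, 51 of the 78 genes were assigned to the large subunit, 26 to the small subunit and 1 to neither.

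The 78 genes lie on 21 chromosomes. Letters of 6 known motifs were counted near their start sites, as a description with no test. Promoters of 70 of them were matched in RefSeq (GRCh38.p14), each 250 bases before to 50 bases after the start. The letters CCGGAAG on either strand, a site that ETS family factors are known to bind, were in 29 of the 70 (41.4%), against 14.2% of 15843 protein-coding genes and 10.7% of all 27305 genes with such a window. The letters ATGGCGG on either strand, part of the known YY1 site, were in 24 of the 70 (34.3%), against 7.63% and 5.72%. The core of the palindromic NRF1 site was in 8 of the 70 (11.4%), against 8.58% and 6.28%. Of the other 3, the E-box CACGTG was in 7 of the 70 (10%, against 8.88% of protein-coding genes). The GC box GGGCGG was in 43 (61.4%, against 58.5%) and CCAAT in 20 (28.6%, below the 36.4% of protein-coding genes). Matches to different motifs were allowed to overlap. The ETS letters were in 4 of 10 promoters of genes that rose, 6 of 20 of genes that fell and 19 of 40 of the rest, and the YY1 letters in 2 of 10, 9 of 20 and 13 of 40. The 100 bases before the start of 4 genes are shown because they carry the ETS letters (in capitals) in promoters of genes that moved in opposite directions, MRPL33 and MRPL40 up, MRPS10 and MRPL53 down.
MRPL33: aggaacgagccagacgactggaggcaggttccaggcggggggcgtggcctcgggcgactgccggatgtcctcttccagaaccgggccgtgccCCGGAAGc
MRPL40: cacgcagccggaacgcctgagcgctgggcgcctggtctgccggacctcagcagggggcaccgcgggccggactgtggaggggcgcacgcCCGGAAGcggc
MRPS10: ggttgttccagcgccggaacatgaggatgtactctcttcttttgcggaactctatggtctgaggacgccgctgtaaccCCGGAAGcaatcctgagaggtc
MRPL53: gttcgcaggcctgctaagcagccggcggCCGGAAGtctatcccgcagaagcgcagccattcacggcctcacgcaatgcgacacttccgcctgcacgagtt
These stretches lie at chr2:27771619-27771718 (plus strand), chr22:19432445-19432544 (plus), chr6:42217862-42217961 (minus) and chr2:74472681-74472780 (minus). Counted back from the start, the first letter of the match is base 8 in MRPL33, 11 in MRPL40, 22 in MRPS10 and 72 in MRPL53. A match describes the letters only, and binding was not measured.

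Values are given as deposited, on a log2 scale taken from the numbers themselves as log2(FPKM + 1), FPKM being fragments scaled by transcript length and by library size. No read counts were analysed, and sequencing depth is therefore unknown. On the linear scale each sample added up to between 375342 and 387753. Epithelial markers were high in all 6 samples (EPCAM 7.30 to 7.62, KRT8 9.41 to 9.84), and of 3 leukocyte genes PTPRC and CD3E were at or near 0 and CD14 was low (0.73 to 0.80 parental, 0.12 to 0.26 adapted). Among fibroblast and endothelial markers, COL1A1 (1.99 to 2.04 parental, 2.97 to 3.28 adapted), LUM (0.042 to 0.063, then 0.53 to 0.73) and CDH5 (0.16 to 0.27, then 1.19 to 2.08) were higher in adapted cells, PECAM1 was lower, and COL1A2 and DCN stayed at or under 0.11; the part of these markers in the results below was not tested. Adapted replicate 1 stood apart, correlating with adapted replicates 2 and 3 at r = 0.991 and 0.991 across all rows. The correlation was 0.996 between adapted replicates 2 and 3 and at least 0.997 among parental samples. With the parental samples, adapted replicate 1 correlated at 0.9725 to 0.9727, and adapted replicates 2 and 3 at 0.9632 to 0.9636. Adapted replicate 1 also kept the most of the proliferation marker MKI67 (3.62, against 2.88 and 2.98 in the other adapted and 5.04 to 5.05 in the parental samples).

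All 78 genes passed the filter on low values, a mean of at least 1 over the 6 samples. Their mean levels ran from 2.83 to 6.56 with a median of 4.66, and 71 of the 78 lay above the median of the 12656 rows tested (3.41). The highest levels were those of MRPL37, MRPS24 and MRPS28. MRPL37, a mitochondria-specific protein of the large subunit, was at 6.72, 6.75 and 6.79 in parental and 6.43, 6.18 and 6.45 in adapted cells. MRPS24, the counterpart of a bacterial small-subunit protein at the mRNA entry, was at 6.61, 6.50 and 6.56, then 6.77, 6.33 and 6.27. MRPS28 of the small subunit was at 6.43, 6.50 and 6.58, then 6.33, 6.11 and 6.05. The groups did not overlap for MRPL37 and MRPS28, whereas adapted replicate 1 held the highest MRPS24 value of all 6 samples. The lowest levels were those of the large-subunit genes MRPL42 (2.92 to 3.14 parental, 2.72 to 3.12 adapted), MRPL22 (2.999 to 3.306, then 2.61 to 2.93) and MRPL1 (2.75 to 2.95, then 2.53 to 3.02). Within each set of 3 the ranges over the 6 samples overlapped. MRPL37 was above MRPS28 in all 6 samples, whereas every other pair within a set changed order between samples.

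To see which of these genes differed after 72 h of Osi, parental and adapted cells were compared over all 12656 rows with limma, and adjusted p-values under 0.05 after Benjamini-Hochberg correction were called. Of the 78 genes, 11 rose, 24 fell and 43 did not pass the threshold. Among all rows tested 56.9% passed it, 30.7% rising and 26.2% falling, so that the shares of the ribosomal genes, 14.1% and 30.8%, were lower on the rising side and near the background on the falling side. Of the 7634 rows at the same range of levels, 31.1% rose and 27.6% fell. The median log2 fold change of the 78 genes was -0.15, with 19 above 0 and 59 below, beside a median of 0.028 over all rows tested. Changes were small: 68 of the 78 genes stayed within 0.5 of 0 on the log2 scale, 6 rose and 4 fell by at least 0.5, against 16.3% and 13.7% of all rows (30% in either direction). Of these 6 rises, 3 (MRPL11, MRPL35 and MRPS22) reached 0.5 only as deposited: with the constants described below subtracted, 3 rose and 4 fell by at least 0.5 (15.7% and 13.7% of all rows). In 11 genes all 3 adapted values were above the parental ones and in 31 all were below, against 35.7% and 30.6% of all rows (66.3% in either direction). In bulk RNA, fewer cells that express a gene and less RNA of it per cell cannot be told apart.

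**Figure D1:**
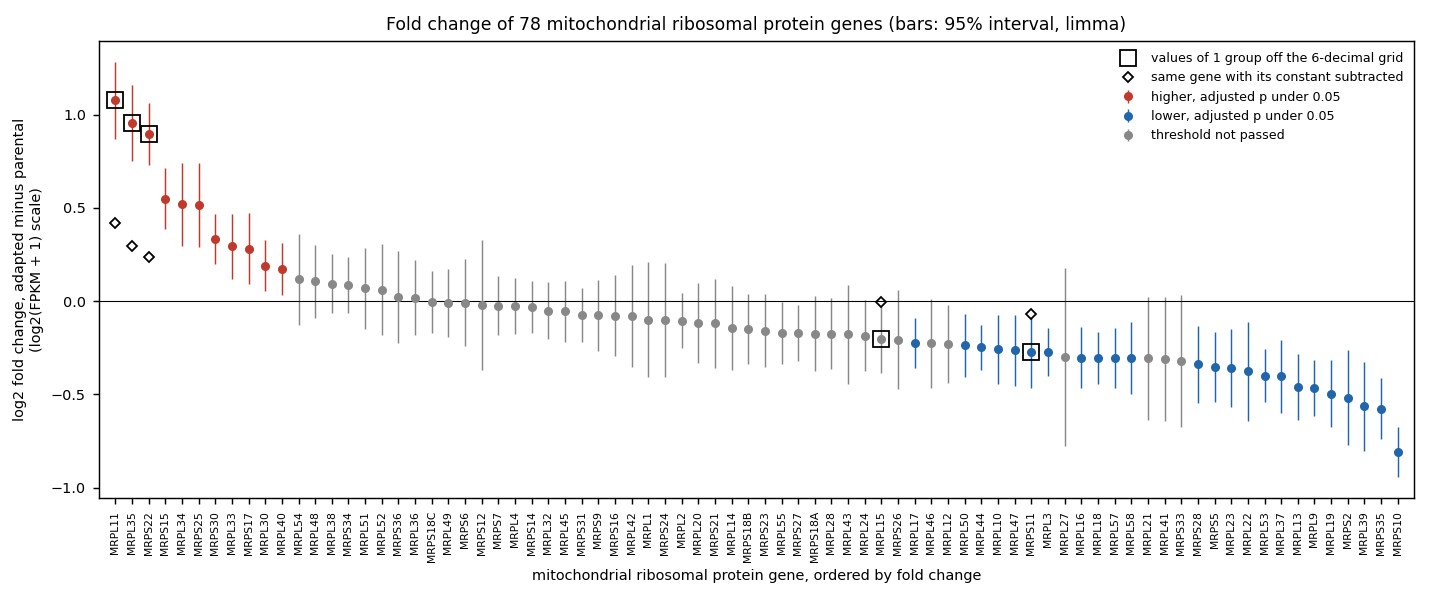
Log2 fold change (adapted minus parental, log2(FPKM + 1) scale) of the 78 genes in descending order, with 95% intervals from limma; red rose, blue fell and grey did not pass the threshold. The 3 genes at the left end, MRPL11, MRPL35 and MRPS22, are boxed because their adapted values are off the 6-decimal grid, and diamonds show the 5 boxed genes with their constant subtracted.

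The falls were larger in adapted replicates 2 and 3. Relative to the parental mean, the median of the 78 genes was -0.038 in adapted replicate 1, -0.16 in replicate 2 and -0.23 in replicate 3, while that of all rows tested was 0.034, 0.040 and 0.022. Of the 78 genes, 45 had their highest adapted value in replicate 1, 18 in replicate 2 and 15 in replicate 3. The linear values of the 78 genes summed to 2387 to 2465 in parental cells and to 2399, 2183 and 2136 in adapted replicates 1, 2 and 3, so that replicate 1 lay within the parental range. Without adapted replicate 1, 40 of the 78 genes fell (30.8% of all rows) and 11 rose (35.4%), with all 24 and 11 of the first calls among them. The share of mitochondrially encoded RNA in the linear sum was 8.07% to 8.66% in parental and 10.9%, 9.73% and 12.2% in adapted cells. The part of that share and of MKI67 in these values was not tested.

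**Figure D2:**
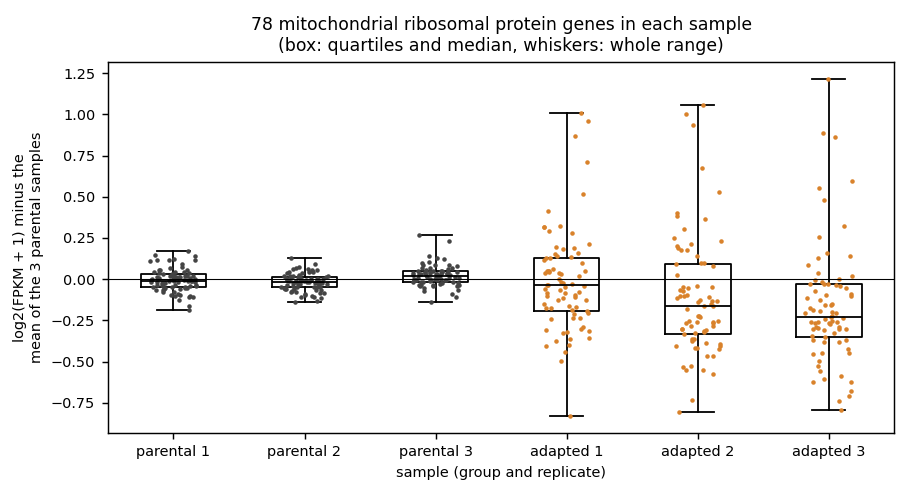
Each point is 1 of the 78 genes in 1 sample, as its log2(FPKM + 1) minus the mean of the 3 parental samples; boxes are quartiles and medians, whiskers the whole range. The adapted medians are -0.038, -0.16 and -0.23 in replicates 1, 2 and 3.

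The 3 genes with the largest rises as deposited were MRPL11, MRPL35 and MRPS22, and all 3 belong to a small set of rows with unusual values. When the log2 and the added 1 were removed, 27069 of the 27216 rows gave 6-decimal numbers in all samples. In the other 147 rows (0.54% of the table, 1.11% of the rows tested) the 3 values of 1 group were off this grid. In each, 1 constant, subtracted on the log2 scale, returned all 3 to it. The constant was 0.66 in 87 rows and 0.65 in 35 rows, for adapted values, and 0.2 in 25 rows, for parental values. Of the 78 genes 5 were such rows: 0.66 returned the adapted values of MRPL11, MRPL35 and MRPS22, and 0.2 returned the parental values of MRPL15 and MRPS11. None of the 86 cytosolic ribosomal protein genes was among these rows. What the constants stand for cannot be read from the table, and their subtraction is shown as an alternative, not as an earlier state of the values.

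MRPL11, which sits at the base of the stalk that recruits translation factors, lies on chromosome 11 from 66435075 to 66438848 (RefSeq, GRCh38.p14). Its values were 4.66, 4.45 and 4.50 in parental and 5.50, 5.60 and 5.75 in adapted cells. As deposited it rose by 1.08 with a standard error of 0.09 (adjusted p = 7.39e-05 in limma), and with 0.66 subtracted the adapted values were 4.84, 4.94 and 5.09 and the log2 fold change 0.42 (adjusted p = 0.00563). The groups stayed apart either way, but its place among the 78 genes went from rank 1 to rank 4.

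MRPL35 is the counterpart of a small bacterial protein of the large subunit. It was at 3.49, 3.35 and 3.21 in parental and 4.36, 4.35 and 4.21 in adapted cells, so that it rose by 0.96 (adjusted p = 1.16e-04 in limma), and by 0.30 after subtraction (adjusted p = 0.0236). MRPS22, a mitochondria-specific protein of the small subunit, was at 5.07, 4.86 and 4.94, then 5.83, 5.89 and 5.84, so that it rose by 0.90 (adjusted p = 6.09e-05 in limma), and by 0.24 after subtraction (adjusted p = 0.0232). Their places among the 78 genes went from ranks 2 and 3 to ranks 6 and 9.

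In the other 2 genes the parental values were off the grid. Their 95% intervals lay below 0 as deposited and included 0 with the constant subtracted. MRPS11, the counterpart of a bacterial protein on the platform of the small subunit, was at 3.32, 3.27 and 3.23 in parental and 3.11, 2.85 and 3.05 in adapted cells and fell by 0.27 as deposited (limma, adjusted p = 0.0266). With 0.2 subtracted its log2 fold change was -0.071 (95% interval -0.27 to 0.13, adjusted p = 0.498) and the groups overlapped. Its call was also lost in 4 of 6 leave-one-out fits, without any one of the parental samples (adjusted p 0.0948, 0.0782 and 0.0619 for replicates 1, 2 and 3) or without adapted replicate 2 (0.0543). MRPL15 of the large subunit was at 5.20, 5.28 and 5.37, then 5.20, 5.06 and 4.98, a log2 fold change of -0.20 as deposited (adjusted p = 0.0572, limma, not past the threshold) and -0.0036 with the constant subtracted (95% interval -0.19 to 0.18). Without adapted replicate 1 and as deposited it passed the threshold (-0.26, adjusted p = 0.00873). With all 5 constants subtracted 11 of the 78 genes rose and 23 fell (30.3% and 26% of all rows), with a median of -0.13.

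**Figure D3:**
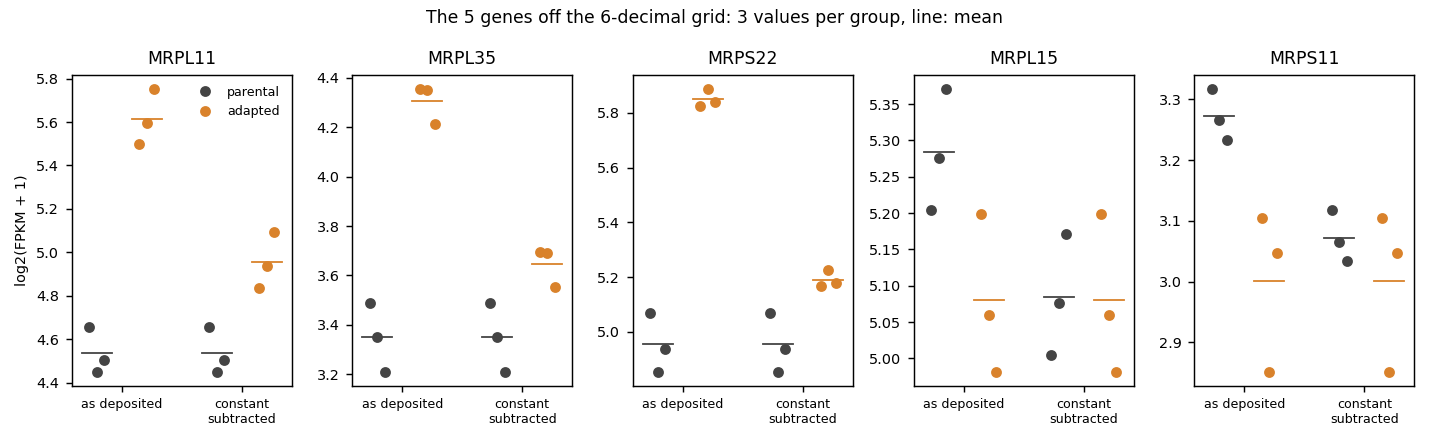
log2(FPKM + 1) of the 5 genes whose values in 1 group were off the 6-decimal grid, as deposited and with the constant subtracted; points are samples and lines group means. The adapted samples of MRPL11, MRPL35 and MRPS22 stay above the parental ones after subtraction, whereas in MRPL15 and MRPS11 the groups then overlap.

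Among the 73 genes on the grid, 8 rose (11%) and 23 fell (31.5%), against 30.7% and 26.2% of all rows, with a median of -0.16. The largest rise was in MRPS15, a small-subunit protein whose bacterial counterpart binds ribosomal RNA early in assembly (chromosome 1 from 36455718 to 36464384). Its values were 5.29, 5.15 and 5.08 in parental and 5.69, 5.70 and 5.77 in adapted cells, a rise of 0.55 with a standard error of 0.07 (adjusted p = 5.01e-04 in limma). MRPL34, the counterpart of a small bacterial protein of the large subunit, went from 4.66, 4.64 and 4.76 to 5.40, 5.05 and 5.17 (log2 fold change 0.52, adjusted p = 0.00275, limma). MRPS25, a mitochondria-specific small-subunit protein, went from 3.41, 3.40 and 3.37 to 3.71, 4.07 and 3.95 (0.51, adjusted p = 0.00317, limma). In each of these the lowest adapted sample was above the highest parental one, which the choice of genes required. MRPL34 overlaps ABHD8 and MRPS25 overlaps NR2C2 in RefSeq, and whether counting used strand is not stated. The same limit holds for genes that fell, such as MRPL9 (OAZ3), MRPL19 (SUPT4H1P1) and MRPS2 (LOC101928525). The other genes on the grid that rose were MRPS30, MRPL33, MRPS17, MRPL30 and MRPL40, by 0.17 to 0.33.

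The largest fall was in MRPS10, the counterpart of a bacterial protein in the head of the small subunit, on chromosome 6 from 42206807 to 42217861. It was at 5.23, 5.14 and 5.25 in parental and 4.38, 4.40 and 4.41 in adapted cells, a difference of -0.81 with a standard error of 0.06 (adjusted p = 3.9e-05 in limma). The 3 adapted values of MRPS10 lay close together. MRPS35, a mitochondria-specific small-subunit protein, went from 6.16, 6.05 and 6.05 to 5.59, 5.53 and 5.41 (-0.58, adjusted p = 4.08e-04, limma). MRPS2, whose bacterial counterpart joins the small subunit late in its assembly, went from 5.98, 5.97 and 6.02 to 5.70, 5.26 and 5.47 (-0.52, adjusted p = 0.00516, limma).

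In the large subunit the mitochondria-specific MRPL39 went from 4.40, 4.30 and 4.54 to 4.01, 3.86 and 3.68 (log2 fold change -0.56, adjusted p = 0.00279, limma). MRPL19 and MRPL9, counterparts of bacterial proteins, fell by 0.50 (4.36, 4.26 and 4.25 to 3.85, 3.87 and 3.67) and by 0.46 (5.985, 6.011 and 6.001 to 5.64, 5.47 and 5.50) on the log2 scale, with adjusted p = 0.00129 and 7.59e-04. As deposited, the 6 largest falls and the 6 largest rises kept their direction and their call in every fit that left out 1 sample. These fits were not run with the constants subtracted. A single gene tested alone cannot give a p below 0.1 in an exact permutation test of 3 samples against 3.

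**Figure D4:**
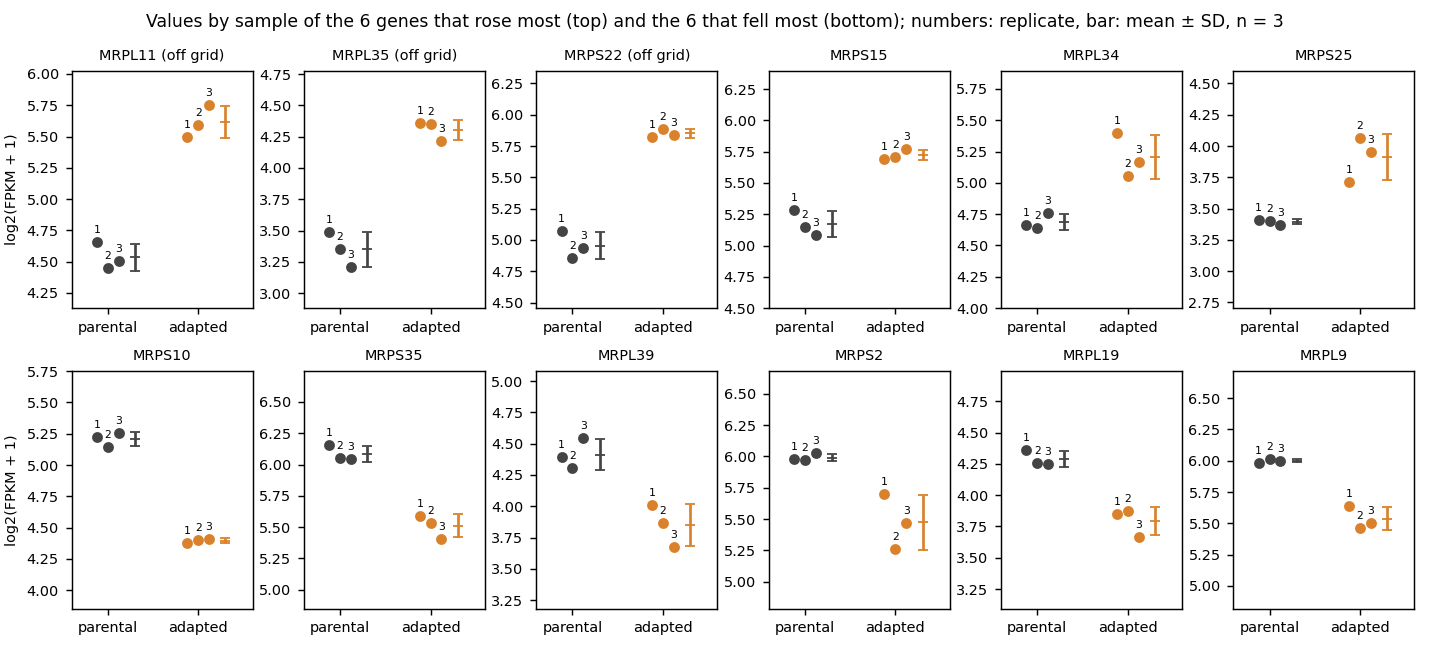
log2(FPKM + 1) in each sample of the 6 genes that rose most (top row) and the 6 that fell most (bottom row); points carry the replicate number and bars show mean ± SD (n = 3). All panels span the same range. No panel can show overlap between parental and adapted samples, because only genes without overlap were picked.

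By subunit, 7 of the 51 large-subunit genes rose (13.7%) and 18 fell (35.3%), with a median log2 fold change of -0.18. Of the 26 small-subunit genes 4 rose (15.4%) and 6 fell (23.1%), with a median of -0.089. Among all rows tested 30.7% rose and 26.2% fell. By origin, 7 of 48 genes with a bacterial counterpart rose (14.6%) and 16 fell (33.3%), with a median of -0.16. The MRPS18 paralogs were counted among these 48. Of 29 mitochondria-specific genes 4 rose (13.8%) and 8 fell (27.6%), with a median of -0.16. No test of the difference between these groups was made. Of the 6 genes for proteins around the exit tunnel, MRPL17, MRPL22, MRPL23 and MRPL47 fell, by 0.22 to 0.38 on the log2 scale. MRPL24 (-0.18, adjusted p = 0.0856) and MRPL45, which holds the ribosome to the inner membrane (-0.053, adjusted p = 0.538), did not pass the threshold of limma. The call of MRPL22 was lost without parental replicate 1 (adjusted p = 0.0894), without parental replicate 3 (0.0604) and without adapted replicate 2 (0.077).

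Of the 5 stalk genes 1 rose (20%) and 2 fell (40%), against 30.7% and 26.2% of all rows. The gene that rose was MRPL11, whose adapted values were off the grid. Its log2 fold change was 1.08 as deposited and 0.42 with 0.66 subtracted. Beside the rise in MRPL11, MRPL53 went from 4.28 in each parental sample to 3.96, 3.85 and 3.83 (log2 fold change -0.40, adjusted p = 0.00118, limma). MRPL10, which anchors the stalk, fell by 0.26 (5.12, 5.20 and 5.08 to 5.01, 4.75 and 4.88, adjusted p = 0.0266). Its call rests on the whole set of samples, being kept without adapted replicate 1 and lost in the 5 fits that left out any other single sample (adjusted p 0.0532 to 0.102). MRPL12, the protein of the stalk arms, which is also known to bind the mitochondrial RNA polymerase, was at 5.99, 5.84 and 5.87, then 5.84, 5.62 and 5.55 (-0.23, adjusted p = 0.0618, limma), and passed the threshold without adapted replicate 1 (-0.31, adjusted p = 0.00329). MRPL54 was at 3.84, 3.86 and 3.69, then 3.99, 4.05 and 3.70 (0.12, adjusted p = 0.365).

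The symbols do not always name the subunit. MRPS30 and MRPS18A are proteins of the large subunit despite the S in their names. MRPS30 rose by 0.33 (4.31, 4.26 and 4.25 to 4.57, 4.66 and 4.60, limma, adjusted p = 0.00213). The MRPS18 paralogs, which share an origin with 1 bacterial protein, did not pass the threshold. MRPS18A was at 4.94, 5.07 and 5.08, then 4.838, 4.728 and 5.005 (log2 fold change -0.17, adjusted p = 0.118, limma), and passed without adapted replicate 3 (-0.25, adjusted p = 0.0313). MRPS18B of the small subunit was at 5.45, 5.52 and 5.52, then 5.50, 5.31 and 5.23 (-0.15, adjusted p = 0.148), and passed without adapted replicate 1 (-0.23, adjusted p = 0.00787). MRPS18C, also of the small subunit, was at 3.67, 3.71 and 3.74, then 3.61, 3.81 and 3.69, a difference of -0.0058 with a 95% interval from -0.17 to 0.16. MRPS36, now named KGD4 and placed in the 2-oxoglutarate dehydrogenase complex of the citric acid cycle rather than in the ribosome, was at 3.46, 3.24 and 3.33, then 3.38, 3.53 and 3.18 (0.024, 95% interval -0.22 to 0.27). MRPL4 (-0.026, 95% interval -0.18 to 0.12) and MRPS14 (-0.031, -0.17 to 0.11) were, with MRPS18C, chosen as lying near 0 with a narrow interval.

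Of the most abundant genes, MRPL37 fell by 0.40 (adjusted p = 0.0051 in limma) and MRPS28 by 0.34 (adjusted p = 0.0128), the latter losing its call without parental replicate 3 (adjusted p = 0.0545). MRPS24 had a log2 fold change of -0.10 (95% interval -0.41 to 0.21, adjusted p = 0.539) with all samples and of -0.26 (adjusted p = 0.00448) without adapted replicate 1. The 2 other genes of lowest level, MRPL42 (-0.079, adjusted p = 0.589) and MRPL1 (-0.099, adjusted p = 0.542), did not pass the threshold.

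Mitochondrial translation also needs ribosomal proteins with other names, factors that assemble the ribosome, and factors that start, extend and end the chain. Of the 5 subunits with other names, 0 rose and 2 fell, with all 5 fold changes below 0 (median -0.19; limma, 3 with an adjusted p from 0.159 to 0.274). PTCD3, a small-subunit protein that binds RNA, fell by 0.33 (3.89, 3.82 and 3.87 to 3.62, 3.56 and 3.42, adjusted p = 0.0063), and DAP3, a GTP-binding protein of the small subunit, fell by 0.29 (adjusted p = 0.0111). Of the 26 assembly factors 6 rose (23.1%) and 5 fell (19.2%), with a median of 0.026. The shares of all rows that rose and fell were 30.7% and 26.2%. MPV17L2, which takes part in large-subunit assembly, rose by 0.71 (3.21, 3.02 and 3.05 to 3.91, 3.71 and 3.77, limma, adjusted p = 3.59e-04), and so did MTERF4, which brings an rRNA methyltransferase to the large subunit (adjusted p = 0.0267, the groups overlapping). MRM3, which methylates the large ribosomal RNA, fell by 0.53 (adjusted p = 0.00879) and GTPBP10, a GTPase of large-subunit assembly, fell by 0.50 (adjusted p = 6.08e-04).

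The 17 genes listed as translation factors also include LRPPRC, SLIRP and OXA1L, whose roles, given below, are not to start, extend or end the chain. Of the 17 genes 2 rose (11.8%) and 6 fell (35.3%), against 30.7% and 26.2% of all rows, with a median of -0.050. In the 2 that rose, LRPPRC and OXA1L, the adapted values were off the grid and returned to it when 0.66 was subtracted. With the constants subtracted 1 of the 17 rose (5.88%, against 30.3% of all rows). LRPPRC, which with SLIRP keeps mitochondrial mRNAs stable, was at 5.54, 5.38 and 5.24, then 6.51, 6.48 and 6.50 (a rise of 1.11, adjusted p = 4.65e-05 in limma), or 0.45 after subtraction (adjusted p = 0.00273). OXA1L, which inserts new chains into the inner membrane, was at 6.13, 6.08 and 6.29, then 7.10, 6.87 and 6.75 (0.74, adjusted p = 7.23e-04), or 0.082 with it subtracted (adjusted p = 0.517). The elongation factor TSFM fell by 0.59 (adjusted p = 0.00256) and SLIRP by 0.38 (adjusted p = 0.0136). The 13 protein-coding genes of mitochondrial DNA, whose mRNAs this ribosome translates, had a median log2 fold change of 0.56. Of these genes 7 rose (53.8%, against 30.7% of all rows) and 0 fell (26.2% of all rows) in limma. At an unadjusted p under 0.05 also 0 fell, since all 13 fold changes were above 0. MT-ND1, a subunit of complex I, was at 10.21, 10.01 and 10.07, then 10.91, 10.83 and 11.05 (0.83, adjusted p = 3.97e-04). MT-ND3, of the same complex, had a log2 fold change of 0.80 (adjusted p = 0.0030).

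Cytosolic ribosomal proteins are the nearest comparison. Of 86 such genes and like-named paralogs 84 were tested, and 0 rose and 34 fell (40.5%), against 30.7% and 26.2% of all rows. Their median log2 fold change was -0.29, with 9 fold changes above 0. At an unadjusted p under 0.05 in limma, 0 were higher and 47 lower. Without adapted replicate 1, 60 of the cytosolic genes fell and 0 rose, against 30.8% and 35.4% of all rows. In that fit, at an unadjusted p under 0.05 in limma, 1 was higher and 62 lower. The 78 mitochondrial genes lay between these and all rows tested, with medians of -0.15, -0.29 and 0.028. They differed from the cytosolic genes in having 11 that rose (14.1%, against 30.7% of all rows), 3 of them off the grid. Their median level was 4.66, against 8.66 for the cytosolic genes tested. No test of the difference between the lists was made.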

How the data were processed

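RNA-sequencing values of 3 parental and 3 adapted H1975 samples were analysed. The authors deposited 1 table of log2 values, 1 column per sample, with columns matched to samples by group and replicate number. The unit is not named and was taken as log2(FPKM + 1) from the values. Per the labels, the submitters' processing notes name Bowtie2 2.1.0, STAR, edgeR and hg38; their roles, the quantifier and the annotation are not given in the sources used here. Depth is unknown, so no counting error is given. The paper's methods name DESeq2, which needs counts.

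limma 3.58.1 in R 4.3.3 (lmFit, eBayes with an intensity trend, no pairing) was run on all rows with a mean of at least 1, with Benjamini-Hochberg adjustment over all 12656 rows; the script was tested on simulated data. Fold changes understate the change of low genes. A value was on the grid when it lay within 1e-13 (log2 units) of the log2 of a 6-decimal number plus 1, and constants from 0.01 to 0.99 were tried. Genes named are the 6 that rose and the 6 that fell most, the 3 highest and the 3 lowest in level, those off the grid, the MRPS18 paralogs, MRPS30, MRPS36, 3 stalk genes, the 3 nearest to 0 with the narrowest interval, and up to 2 per direction in other lists (1 gene that this rule names is not reported here); the other members named in subunit regions were picked with their values in view. The 6 that rose and the 6 that fell most were taken from genes past the threshold without overlap between the groups. The genes and lists were chosen with earlier results of these data known. Python 3.11 was used for sequences and figures. In RefSeq, 32 of the 78 genes overlap another gene and 42 have pseudogenes named after them, which the counting could have mixed with them.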

Additional observations from a re-analysis of the deposited data

How the results depend on the processing

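The direction of the median and the counts of genes were recomputed under other settings. At an adjusted p under 0.01, 7 of the 78 genes rose and 15 fell (22.1% and 18.5% of all rows). When a change of 0.5 or more (log2) was also required, 6 rose and 4 fell (16.3% and 13.7%), and with the constants subtracted too, a setting chosen after seeing the data, 3 rose and 4 fell (15.7% and 13.7%). Over the 6 leave-one-out fits, 8 to 11 rose (24.8% to 35.4% of all rows), 17 to 40 fell (20.6% to 30.8%; 40 and 30.8% without adapted replicate 1) and the median ran from -0.20 to -0.093. With the replicate number as a block, 9 rose and 24 fell (29% and 24.4% of all rows), the median was -0.15, MRPL10 lost its call (adjusted p = 0.0533) and MRPL12 gained one (0.04). Deviations from the group means correlated at -0.051, -0.031 and -0.020 between samples with the same number (replicates 1, 2 and 3). With 3 samples per group such correlations cannot show whether these samples shared a culture or batch. A pseudocount of 0.1, no filter, a filter at 3, quantile scaling, rescaling to equal sums with or without mitochondrially encoded genes, median centring, eBayes without a trend or robust, and leaving out or subtracting the constants gave 8 to 11 genes that rose (15.9% to 33.9% of all rows, the lowest without the filter), 20 to 27 that fell (13.5% to 28.3%) and medians of -0.17 to -0.11. Without the filter the calls of MRPL22 (adjusted p = 0.0859), MRPS11 (0.0583) and MRPL10 (0.0668) were lost, and with median centring MRPL15 (0.047) and MRPL12 (0.0476) passed. The median of all rows moved by less than 0.1 under each scaling. The cause of these shifts was not tested. Tests that need counts could not be run on log2 values, and without depth a gene that missed the threshold cannot be called unchanged.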

Other observations

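The enzymes that charge tRNAs inside mitochondria moved in both directions. Of 17 mitochondrial tRNA synthetases 4 rose and 4 fell (23.5% each), against 30.7% and 26.2% of all rows. Their median log2 fold change was 0.049, with 10 above 0. RARS2, which charges the tRNA for arginine, went from 3.77, 3.70 and 3.84 in parental to 4.05, 4.30 and 4.11 in adapted cells (limma, adjusted p = 0.00609), and MARS2, for methionine, rose by 0.34 (adjusted p = 0.0179). IARS2, for isoleucine, went from 6.13, 6.18 and 6.15 to 5.77, 5.73 and 5.64 (adjusted p = 6.95e-04). None of the 17 was off the 6-decimal grid.

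The central protuberance is the part of the large subunit that meets the small one near the tRNAs. Of the 7 genes assigned to it, 1 rose and 1 fell (14.3% each), against 30.7% and 26.2% of all rows. The other 5 did not pass the threshold, and the median log2 fold change of the 7 was -0.17. MRPL40 rose by 0.17 (limma, adjusted p = 0.0389) and MRPL18 fell by 0.30 (adjusted p = 0.00386). MRPL58, a peptidyl-tRNA hydrolase built into the ribosome, fell by 0.30 (adjusted p = 0.0162). MRPL27 had the widest interval of the 78 genes, from -0.78 to 0.18, with values of 4.63, 4.60 and 4.96 in parental and 4.85, 4.42 and 4.02 in adapted cells.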
